A study of Mus musculus with 4 samples.

Results

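The genes of antigen presentation by the major histocompatibility complex (MHC) were examined in mouse skin. They were taken by symbol as every gene starting with H2- (37 genes) plus Cd74, Ciita, Nlrc5, B2m, Tap1, Tap2, Tapbp, Ctss, Erap1 and Rfx5, which gave 47 of the 25571 genes measured. By gene they fell into 2 classical class I heavy chains, 25 nonclassical class I genes, 4 classical and 5 nonclassical class II genes, 6 companions of class I, 4 companions of class II, and H2-Ke6, which carries the prefix but encodes an enzyme and no MHC chain. In all, 40 members lay on chromosome 17 of GRCm38.

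RNA came from skin of mice in 4 groups of 1 library each, labelled PRP-MNs, PRP, MNs and NC. The series title concerns microneedles (MNs), arrays of fine needles that pierce the skin, loaded with platelet-rich plasma (PRP), a platelet concentrate of blood, and regrowth of hair. NC is not spelled out in the labels and was used as the control. Strain, sex, age, treatment doses, time of harvest and the number of animals behind a library are not stated in the labels, and no group had replicates. Every difference below is therefore between single libraries, without any p-value or error between animals. In bulk skin, fewer cells of a type and less RNA per cell cannot be told apart.

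Class I molecules are built from a heavy chain and the light chain B2m. They are loaded in the endoplasmic reticulum with peptides that the Tap1 and Tap2 transporter delivers and are shown to CD8 T cells by nearly all nucleated cells. Class II molecules pair an alpha with a beta chain and travel with the invariant chain Cd74, which proteases such as cathepsin S (Ctss) trim before H2-DM exchanges the remaining fragment for a peptide. Dendritic cells, Langerhans cells of the epidermis, macrophages and B cells are their main bearers in skin and lymphoid tissue, and Ciita drives their transcription as Nlrc5 does for class I.

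Levels are in FPKM, a count of fragments scaled by transcript length and by depth. From steps between low values the depth was estimated at about 17.2 M fragments for PRP-MNs, 15.9 M for PRP, 18.6 M for MNs and 19.3 M for NC, so that 3 fragments on a transcript of 1 kb were worth 0.155 to 0.189 FPKM, counting error only. Skin genes were abundant in every library, with Krt14 of basal keratinocytes at 2055 FPKM for PRP-MNs, 3700 for PRP, 3339 for MNs and 3966 for NC. Summed FPKM of 6 genes shared by leukocytes (Ptprc, Laptm5, Coro1a, Cd53, Lcp1 and Cd52) was 902 for PRP-MNs, 272 for PRP, 301 for MNs and 75.4 for NC.

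The promoters were searched for 3 motifs known from this pathway. The Y box, an inverted CCAAT box bound by the factor NF-Y, was searched as CTGATTGG on both strands in the 250 bases before each RefSeq start (GRCm38.p6). These letters were present on either strand upstream of 17 of the 37 members that had a promoter entry (45.9%), against 4.43% of 27025 genes. The count takes in both orientations, and only matches along the gene strand are inverted CCAAT boxes. H2-Ab1, Cd74, Ciita, Nlrc5, Tap2, H2-T24, H2-T10, H2-Q1, H2-Q5 and H2-Bl had no promoter entry and were not searched. The core of the interferon-stimulated response element, searched as GAAANNGAA on both strands, was upstream of 5 of 37 members (B2m, Ctss, Erap1, H2-T22 and H2-T23; 13.5%), against 8.18% of genes. The interferon gamma activated site, searched as TTCNNNGAA, which reads alike on both strands, was upstream of 3 of 37 (H2-DMb2, H2-M11 and H2-M3; 8.11%), against 8.13% of genes. H2-T23 held both the Y box letters and those of the interferon-stimulated element. H2-M11 held both the Y box letters and those of the interferon gamma site. In neither gene did the matches share a base. Each motif was searched as a fixed pattern, and other forms of it were not searched. The counts for the Y box and the interferon-stimulated element therefore do not show that members without a match lack the element. For the interferon-stimulated element this holds for H2-K1, H2-D1, H2-Q4, H2-Q6, H2-Q7 and H2-Q10 among others. For the Y box it holds for H2-DMb1, H2-DMb2 and H2-Ob among others, which hold the shorter run GATTGG. Class I genes arose from each other by duplication, so their promoters are not independent of one another.

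The 160 bases before the start are printed for a pair of class II chains, a class I chain that was expressed, a class I gene listed at 0 in every library, and Ctss, the member with the largest log2 difference between PRP-MNs and NC. Capitals mark the Y box letters, or in Ctss the core of the interferon-stimulated element, and each sequence is written 5′ to 3′ on the strand of its gene. H2-Aa lies at chr17:34287824-34287983 on the minus strand, and H2-Eb1 at chr17:34305707-34305866, H2-Q6 at chr17:35424690-35424849, H2-M10.5 at chr17:36772750-36772909 and Ctss at chr3:95526626-95526785 lie on the plus strand.
H2-Aa: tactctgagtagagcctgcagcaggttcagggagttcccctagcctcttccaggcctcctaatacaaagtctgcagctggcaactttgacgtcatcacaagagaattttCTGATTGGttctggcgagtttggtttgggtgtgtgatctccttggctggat
H2-Eb1: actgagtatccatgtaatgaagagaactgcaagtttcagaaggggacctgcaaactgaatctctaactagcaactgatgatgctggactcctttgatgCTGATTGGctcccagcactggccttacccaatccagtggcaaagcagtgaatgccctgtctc
H2-Q6: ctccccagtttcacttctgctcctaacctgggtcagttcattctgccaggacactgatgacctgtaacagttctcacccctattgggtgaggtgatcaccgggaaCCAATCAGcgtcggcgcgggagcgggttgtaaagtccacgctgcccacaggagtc
H2-M10.5: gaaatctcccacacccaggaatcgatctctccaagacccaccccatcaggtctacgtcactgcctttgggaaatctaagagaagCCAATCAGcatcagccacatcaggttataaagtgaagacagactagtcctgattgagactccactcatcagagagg
Ctss: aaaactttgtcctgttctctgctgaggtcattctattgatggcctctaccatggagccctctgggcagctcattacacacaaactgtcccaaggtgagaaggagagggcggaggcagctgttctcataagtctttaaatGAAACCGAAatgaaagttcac

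In the class II chains H2-Aa, H2-Eb1, H2-Eb2 and H2-Oa the Y box letters ran along the strand of the gene, and in the class I genes and Tap1 they ran along the opposite strand. In H2-Aa they began 51 bases, in H2-Eb1 62 bases, in H2-Q6 55 bases and in H2-M10.5 76 bases before the start. Genes listed at 0 in all 4 libraries, such as H2-M10.1, H2-M10.3, H2-M10.4 and H2-M10.5, held them as well. Read on the strand of the gene, the class I and Tap1 matches are CCAATCAG. In the printed H2-Q6 the shorter run ATTGG also lies along the gene strand, unmarked because only the full letters were searched. Strand and place of such shorter runs were not examined, so the strand difference holds for the full letters only. A match is a run of letters and no evidence that a factor binds there.

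**Figure D1:**
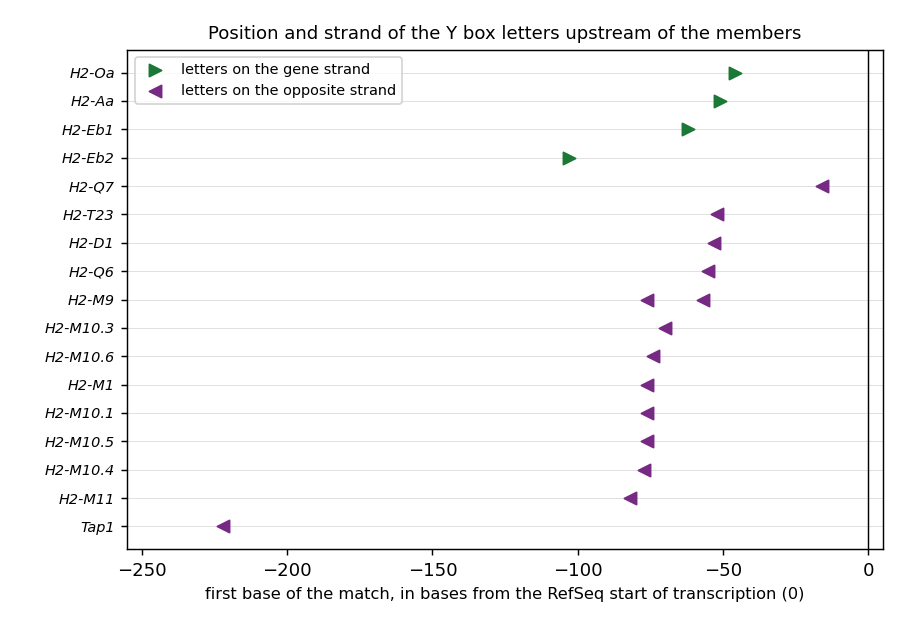
Distance of the Y box letters from the RefSeq start of transcription, in bases, for the 17 members that hold them (H2-M9 has a pair of starts). Green triangles, letters on the strand of the gene, are the 4 class II chains, and purple triangles, letters on the opposite strand, are the class I genes and Tap1.

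Of the 47 members, 34 reached 1 FPKM in some library and 28 reached 5 FPKM. The other 13 were 11 nonclassical class I genes, the class II beta chain gene H2-Eb2 (at most 0.26 FPKM, in PRP-MNs) and H2-Oa, the alpha chain of the H2-DM inhibitor H2-O (at most 0.72 FPKM, in PRP-MNs). Among those 11, H2-M10.1 to H2-M10.5, H2-M11 and H2-T3 were listed at 0 in every library, 7 genes in all. Together the members made up 1.16% of all FPKM for PRP-MNs, 0.793% for PRP, 0.702% for MNs and 0.593% for NC.

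**Figure D2:**
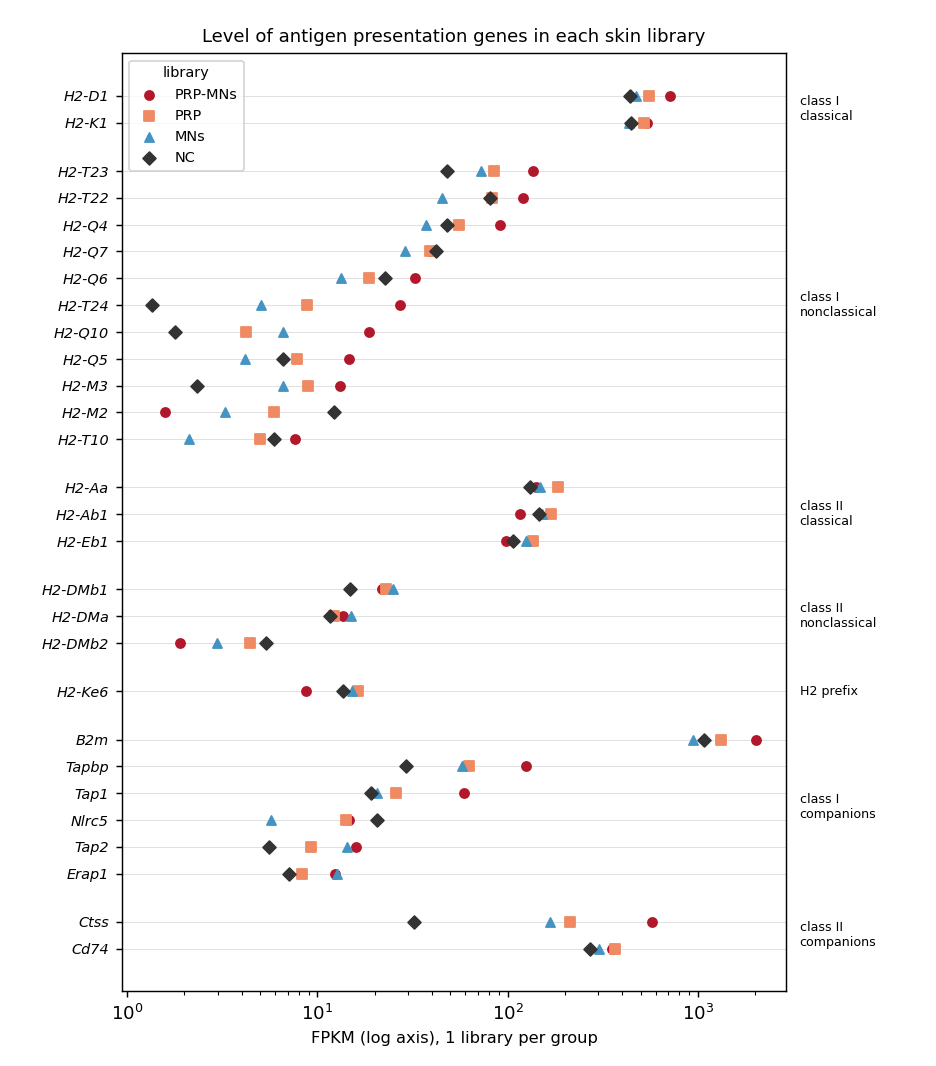
FPKM on a log axis of the 28 members that reached 5 FPKM in at least 1 library, grouped by class, with 1 point for each of the 4 libraries. B2m is the highest, up to 2020.4 FPKM for PRP-MNs, and the class II chains H2-Aa, H2-Ab1 and H2-Eb1 lie between 98.4 and 184 FPKM in all libraries.

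Classical class I heavy chains were abundant in all 4 libraries and highest in PRP-MNs. H2-D1, which presents peptides to CD8 T cells, was at 713 FPKM for PRP-MNs, 555 for PRP, 475 for MNs and 440 for NC. H2-K1, the other classical heavy chain, was at 543 FPKM for PRP-MNs, 521 for PRP, 435 for MNs and 445 for NC. The genes lie at chr17:35262730-35267499 (H2-D1) and chr17:33996017-34000347 (H2-K1). Neither reached 2-fold in any comparison; the largest was H2-D1 between PRP-MNs and NC, a log2 difference of 0.70. For H2-K1 the log2 difference of PRP-MNs and PRP was 0.06, and −0.02 when centred on the median of all genes. Log2 differences were taken on FPKM + 1 throughout, a scale that shrinks those of low genes.

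B2m, the light chain of all these molecules, was at 2020.4 FPKM for PRP-MNs, 1316 for PRP, 940 for MNs and 1077 for NC. It was 1.88 times as high in PRP-MNs as in NC. The ratio of B2m to the summed heavy chains H2-K1 and H2-D1 was 1.61 for PRP-MNs, 1.22 for PRP, 1.03 for MNs and 1.22 for NC, so light and heavy chains were not higher by the same factor in PRP-MNs.

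The peptide loading genes differed more between PRP-MNs and NC than the classical heavy chains. Tapbp, tapasin, which bridges the transporter and the empty class I molecule, was at 124 FPKM for PRP-MNs, 62.9 for PRP, 57.7 for MNs and 29.1 for NC. Tap1 was at 59.3 FPKM for PRP-MNs, 26.0 for PRP, 20.6 for MNs and 19.0 for NC. Its partner Tap2 was at 16.0 FPKM for PRP-MNs, 9.26 for PRP, 14.3 for MNs and 5.58 for NC.
Both transporter subunits were thus highest in PRP-MNs, but in MNs Tap2 stood 2.56 times as high as in NC while Tap1 stood 1.08 times as high. The ratio of Tap1 to Tap2 was 3.71 for PRP-MNs, 2.81 for PRP, 1.44 for MNs and 3.41 for NC. Against NC, log2 differences in PRP-MNs were 2.06 for Tapbp, 1.59 for Tap1 and 1.37 for Tap2. Erap1, the aminopeptidase that trims peptides to length, was at 12.4 FPKM for PRP-MNs, 8.32 for PRP, 12.7 for MNs and 7.08 for NC, below 2-fold throughout.

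Nlrc5, the transactivator of class I genes, had another order than the chains. It was at 14.7 FPKM for PRP-MNs, 14.2 for PRP, 5.68 for MNs and 20.5 for NC. NC was the highest of the 4 libraries, and MNs was lower than NC by 1.68 on the log2 scale.

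Nonclassical class I genes ranged in level from 0 to 136 FPKM. The largest difference was that of H2-T24, a gene of the T region, at 27.3 FPKM for PRP-MNs, 8.86 for PRP, 5.05 for MNs and 1.35 for NC. H2-Q10, known in mice as a secreted class I molecule made mainly in liver, was at 18.7 FPKM for PRP-MNs, 4.20 for PRP, 6.60 for MNs and 1.78 for NC. H2-M3, which presents formylated bacterial peptides, was at 13.2 FPKM for PRP-MNs, 8.88 for PRP, 6.57 for MNs and 2.33 for NC.
H2-T24 lies at chr17:36005695-36020560, H2-Q10 at chr17:35470089-35474563 and H2-M3 at chr17:37270220-37274484. These 3 genes shared an order in which NC was the lowest and PRP-MNs the highest library. Against NC, PRP-MNs was higher by 3.59 for H2-T24, 2.83 for H2-Q10 and 2.09 for H2-M3 on the log2 scale. H2-T23, which encodes Qa-1, a ligand of inhibitory receptors of natural killer cells, had the same order at higher levels, with 136 FPKM for PRP-MNs, 85.0 for PRP, 72.0 for MNs and 47.8 for NC.

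A second set of nonclassical genes was lowest in MNs. H2-T22, a ligand of some gamma delta T cell receptors, was at 121 FPKM for PRP-MNs, 82.9 for PRP, 45.3 for MNs and 80.4 for NC. Its close relative H2-T10 was at 7.59 FPKM for PRP-MNs, 4.97 for PRP, 2.13 for MNs and 5.95 for NC. H2-Q4 was at 91.4 FPKM for PRP-MNs, 55.3 for PRP, 37.1 for MNs and 48.1 for NC.
Of the Qa region genes, H2-Q6 was at 32.4 FPKM for PRP-MNs, 18.7 for PRP, 13.3 for MNs and 22.8 for NC. H2-Q5, annotated as a polymorphic pseudogene like H2-T10, was at 14.7 FPKM for PRP-MNs, 7.83 for PRP, 4.16 for MNs and 6.63 for NC. H2-Q7, which encodes a Qa-2 antigen, had a smaller span, at 39.0 FPKM for PRP-MNs, 39.2 for PRP, 28.7 for MNs and 42.2 for NC. In all 6 genes MNs was the lowest library, below NC and PRP, and in 5 of them PRP-MNs was the highest; H2-Q7 was highest in NC. With each library rescaled to the same FPKM sum, the log2 difference of H2-Q7 between PRP-MNs and NC changed sign, at 0.05 in place of −0.11.

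H2-M2, an M region gene, was highest in NC and lowest in PRP-MNs, extremes that among members at 5 FPKM or more it shared with H2-DMb2 alone. It was at 1.58 FPKM for PRP-MNs, 5.90 for PRP, 3.26 for MNs and 12.3 for NC, lower in PRP-MNs than in NC by 2.36 on the log2 scale. At lower levels, H2-M5 was listed at 0 in PRP-MNs and was at 1.24 FPKM for PRP, 0.43 for MNs and 1.98 for NC. H2-M9 had 1.77 FPKM for PRP-MNs, 0.84 for PRP and 1.05 for MNs, and its value for NC was 0. H2-Q1 was at 4.24 FPKM for PRP-MNs, 0.28 for PRP, 3.71 for MNs and 2.73 for NC, so that PRP alone was low. H2-M5 and H2-M9 entered the comparisons of PRP-MNs and of MNs with NC only through the library in which they were high, and so did H2-Q1 in PRP against NC and H2-Q1, H2-M5 and H2-Ob in PRP-MNs against PRP.

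The classical class II chains H2-Aa, H2-Ab1 and H2-Eb1 differed little between the libraries. H2-Aa, the alpha chain of the I-A molecule, was at 142 FPKM for PRP-MNs, 184 for PRP, 149 for MNs and 131 for NC. H2-Ab1, its beta chain, was at 116 FPKM for PRP-MNs, 169 for PRP, 152 for MNs and 145 for NC. H2-Eb1, the beta chain of I-E, was at 98.4 FPKM for PRP-MNs, 136 for PRP, 124 for MNs and 106 for NC.
PRP was the highest library for all 3 chains. Their sum in PRP-MNs was 0.931 times that in NC, but as a share of the FPKM sum of its library it was 1.04 times that in NC, so the direction depends on the scaling. The invariant chain gene Cd74 was at 353 FPKM for PRP-MNs, 367 for PRP, 302 for MNs and 269.7 for NC, and it too stayed below 2-fold. The summed classical class I heavy chains were 3.53 times the summed class II chains for PRP-MNs, 2.20 times for PRP, 2.14 times for MNs and 2.31 times for NC.

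Within class II, chains of the peptide exchanger H2-DM differed in opposite directions. H2-DMa was at 13.6 FPKM for PRP-MNs, 12.2 for PRP, 14.9 for MNs and 11.7 for NC. H2-DMb1 was at 21.8 FPKM for PRP-MNs, 23.0 for PRP, 24.8 for MNs and 14.9 for NC. H2-DMb2, the other beta chain gene, was at 1.91 FPKM for PRP-MNs, 4.41 for PRP, 2.96 for MNs and 5.37 for NC.
NC was the lowest library for H2-DMb1 and the highest for H2-DMb2, and the ratio of H2-DMb2 to H2-DMb1 was 0.0875 for PRP-MNs, 0.192 for PRP, 0.119 for MNs and 0.360 for NC. H2-Ob, the beta chain of H2-O, was at 1.20 FPKM for PRP-MNs and under 0.5 FPKM in the other libraries.

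Ctss, at chr3:95526786-95556403, differed most between PRP-MNs and NC of all members on the log2(FPKM + 1) scale. It was at 571 FPKM for PRP-MNs, 214 for PRP, 167 for MNs and 32.3 for NC, above NC by 4.10 in PRP-MNs, 2.69 in PRP and 2.34 in MNs on the log2 scale. On plain FPKM, H2-T24 was 20.2 times and Ctss 17.7 times as high in PRP-MNs as in NC. Cd74, the substrate of Ctss, differed less, and the ratio of Ctss to Cd74 was 1.62 for PRP-MNs, 0.583 for PRP, 0.552 for MNs and 0.12 for NC. Ciita was low throughout, at 3.11 FPKM for PRP-MNs, 2.20 for PRP, 2.72 for MNs and 1.50 for NC. Rfx5, a subunit of the factor that binds the X box of MHC promoters, was at 3.70 FPKM for PRP-MNs, 4.40 for PRP, 4.21 for MNs and 4.15 for NC. H2-Ke6 was at 8.72 FPKM for PRP-MNs, 16.4 for PRP, 15.1 for MNs and 13.6 for NC.

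**Figure D3:**
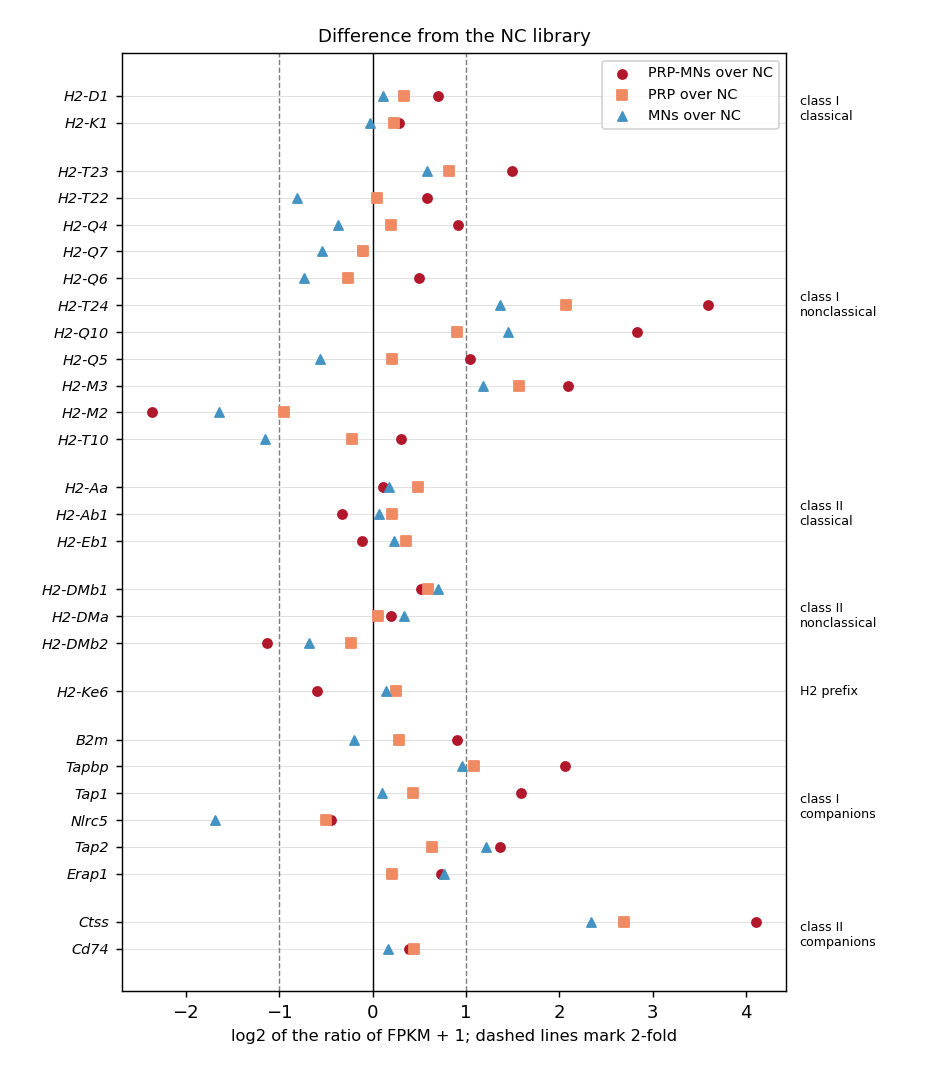
Log2 of the ratio of FPKM + 1 to the NC library for PRP-MNs, PRP and MNs, for the 28 members at 5 FPKM or more in at least 1 library; dashed lines mark 2-fold. Ctss (4.10) and H2-T24 (3.59) lie farthest to the right in PRP-MNs and H2-M2 (−2.36) farthest to the left. The classical class II chains H2-Aa, H2-Ab1 and H2-Eb1 lie near 0, while the class II chain H2-DMb2 lies at −1.13 in PRP-MNs.

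Of the 31 members that averaged at least 1 FPKM over the 4 libraries, 18 were highest in PRP-MNs, where 33.8% of all 13375 such genes were. PRP was highest for 6 members (11% of all genes), MNs for 3 (28.7% of all genes) and NC for 4 (26.6% of all genes). Of the 12 nonclassical class I genes among them 10 were highest in PRP-MNs, and the 3 classical class II chains were all highest in PRP.

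Genes were counted that had 1 FPKM or more in either library of a comparison and differed by at least 2-fold on the log2(FPKM + 1) scale. Of 34 members so measured in PRP-MNs against NC, 10 were higher (29.4%, where 17.6% of all 13981 genes were higher), and 3 were lower (8.82%, where 11.5% of all genes were lower). The 10 were the class I genes H2-T24, H2-Q10, H2-M3, H2-T23, H2-M9 and H2-Q5, the loading genes Tapbp, Tap1 and Tap2, and Ctss. The 3 lower ones were H2-M2, H2-M5 and H2-DMb2. The median over all 34 was 0.55, against 0.14 over all genes. Of the 7 class II chain genes measured none was higher, with a median of 0.11, and 6 of 16 class I heavy chain genes were, with a median of 0.64.

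In PRP against NC, 4 of 32 members were higher (12.5%, against 7.78% of all genes), namely H2-T24, H2-M3, Tapbp and Ctss, and H2-Q1 was lower (3.12%, against 1.46% of all genes). In MNs against NC, 6 of 33 members were higher (18.2%, against 15.7% of all genes) and 4 were lower (12.1%, against 7.12% of all genes), so that the share of higher members was near that of all genes. Higher in MNs were H2-T24, H2-Q10, H2-M3, H2-M9, Tap2 and Ctss, and lower were H2-M2, H2-T10, H2-M5 and Nlrc5. With each library rescaled to the same FPKM sum the MNs counts were 7 higher and 2 lower, and centring moved the shares of all genes in MNs to 12.4% higher and 9.06% lower. These 3 comparisons share 1 NC library and are not independent.

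By their labels PRP-MNs and MNs differ in PRP, but each is 1 library, and doses and time of harvest are not stated. Members past 2-fold between them were class I genes and Ctss. Of 33 members measured, 12 were higher in PRP-MNs (36.4%, against 7.16% of all genes) and none was lower (against 7.39% of all genes). They were the heavy chain genes H2-T24, H2-Q5, H2-T10, H2-T22, H2-Q10, H2-Q4 and H2-Q6, the class I companions Tap1, Nlrc5, B2m and Tapbp, and Ctss. H2-T24 differed by 2.23, H2-Q5 by 1.61, Tap1 by 1.48 and B2m by 1.10 on the log2 scale. The 3 class II chains lay between −0.39 and −0.07.

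By their labels PRP-MNs and PRP differ in microneedles, with the same limits. Here 6 of 34 members were higher in PRP-MNs (17.6%, against 9.54% of all genes), namely H2-Q1, H2-Q10, H2-T24, Ctss, Tap1 and H2-Ob, and H2-M2 and H2-M5 were lower (5.88%, against 7.5% of all genes). H2-Q1, at 2.04, had its lowest value in PRP. The class II chains were lower in PRP-MNs than in PRP by 0.37 for H2-Aa, 0.54 for H2-Ab1 and 0.46 for H2-Eb1 on the log2 scale, short of 2-fold.

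Other genes of the pathway were read from lists written with earlier results of these data known. Of 11 further genes of class I peptide supply, PRP-MNs was higher than NC by 2-fold or more for 4 and lower for none (36.4%, against 17.6% of all genes higher; median 0.71). In PRP and in MNs 1 of the 11 was higher than in NC (9.09%), against 7.78% of all genes for PRP and 15.7% for MNs. The immunoproteasome subunits, which cut the peptides, were among them, with Psmb8 at 57.4 FPKM for PRP-MNs and 14.3 for NC, Psmb10 at 45.5 FPKM for PRP-MNs and 12.0 for NC, and Psmb9 at 30.0 FPKM for PRP-MNs and 11.7 for NC. The chaperone gene Calr was at 430.1 FPKM for PRP-MNs and 142 for NC. Of 7 lysosomal genes tied to class II processing, 4 were higher in PRP-MNs (median 2.10), and 4 each in PRP and in MNs, 57.1% in every case, where 17.6% of all genes were higher in PRP-MNs, 7.78% in PRP and 15.7% in MNs. Among them were the protease Lgmn at 367 FPKM for PRP-MNs and 29.9 for NC and Ctsz at 197 FPKM for PRP-MNs and 20.8 for NC. Ctsl, the cathepsin of thymic and epidermal epithelium, was at 166 FPKM for PRP-MNs and 219.8 for NC. None of 6 partners of Rfx5 at class II promoters (Rfxap, Rfxank, Creb1, Nfya, Nfyb and Nfyc) reached 2-fold, with a median of −0.10.

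In the interferon gamma pathway, PRP-MNs stood at least 2-fold above NC for 5 of the 7 genes measured (71.4%, where 17.6% of all genes were higher; median 2.04). PRP did so for 2 of 7 (28.6%, where 7.78% of all genes were higher) and MNs for 3 of 7 (42.9%, where 15.7% of all genes were higher). Irf1, a factor that acts on class I promoters, was at 53.2 FPKM for PRP-MNs, 12.6 for PRP, 16.0 for MNs and 6.02 for NC. The ligand gene Ifng had 0.21 FPKM for PRP-MNs and 0.16 for PRP, and 0 for both MNs and NC. Of 7 costimulatory genes 6 were measured, and all 6 were higher in PRP-MNs (where 17.6% of all genes were; median 2.24), none in PRP (7.78% of all genes) and 1 in MNs (15.7% of all genes), led by Cd274, the PD-L1 gene, at 37.5 FPKM for PRP-MNs and 2.42 for NC. The CD1 and MR1 list had 2 of 4 genes measured and none past 2-fold in PRP-MNs against NC.

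Markers of the cells that bear these molecules differed between the groups. PRP-MNs stood at least 2-fold above NC for all 6 leukocyte genes (median 3.43), all 6 monocyte genes (median 6.09), all 7 neutrophil genes (median 2.99), 8 of 10 macrophage genes (median 1.82) and 4 of 6 dendritic cell genes measured (median 1.24), where 17.6% of all genes were higher. Some passed the filter only through PRP-MNs, such as the neutrophil gene Ly6g, at 1.19 FPKM for PRP-MNs and 0 for NC. Summed FPKM of the macrophage list was 853 for PRP-MNs, 509 for PRP, 797 for MNs and 177 for NC. That of the monocyte list was 1725 for PRP-MNs, 495 for PRP, 222 for MNs and 38.0 for NC, and that of the dendritic cell list 39.2 for PRP-MNs, 22.6 for PRP, 58.5 for MNs and 19.6 for NC. Ctss, like the leukocyte and monocyte sums, was highest in PRP-MNs and lowest in NC, as were other members such as Tapbp and H2-T24. Between the single treatments, Ctss was higher in PRP (214 FPKM) than in MNs (167 FPKM), as was the monocyte sum. The leukocyte sum was higher in MNs (301 FPKM) than in PRP (272 FPKM). Whether Ctss is tied to these cells was not tested.

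Some markers of Langerhans cells and T cells were lower in PRP-MNs than in NC. Cd207, which encodes langerin, was at 0.97 FPKM for PRP-MNs, 11.3 for PRP, 4.43 for MNs and 23.3 for NC. Of the 4 genes of its list, PRP-MNs was lower by 2-fold or more for 3 (where 11.5% of all genes were lower). Mfge8 differed by −0.17 on the log2 scale. Epcam, 1 of the 3, is also made by keratinocytes. Of 6 T cell genes, 4 were measured and 2 were at least 2-fold lower (where 11.5% of all genes were lower). They were Cd3g, at 3.91 FPKM for PRP-MNs and 17.1 for NC, and Cd3e, at 1.44 FPKM for PRP-MNs and 5.33 for NC. Cd3d and Cd5 stayed under 2-fold, and Cd4 and Cd8a were below 1 FPKM in both libraries. None of 6 B cell genes reached 1 FPKM in any library. Their summed FPKM was 1.27 for PRP-MNs, 1.16 for PRP, 0.71 for MNs and 0.82 for NC. Of 6 natural killer cell genes, 4 were measured and 2 were at least 2-fold higher (where 17.6% of all genes were higher). Gzma, 1 of these 2, was below 1 FPKM in NC and passed the filter only through PRP-MNs. All 6 endothelial genes were higher as well, of which Vwf passed the filter only through PRP-MNs. Of 6 epidermal and dermal genes 3 were lower (where 11.5% of all genes were lower). Among them was Krt10 of differentiating keratinocytes, at 475 FPKM for PRP-MNs and 6056 for NC. The ratio of Cd74 to the leukocyte gene Ptprc was 4.30 for PRP-MNs, 16.6 for PRP, 11.4 for MNs and 54.8 for NC. The part of these cells in the levels of the class I and class II genes was not tested.

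**Figure D4:**
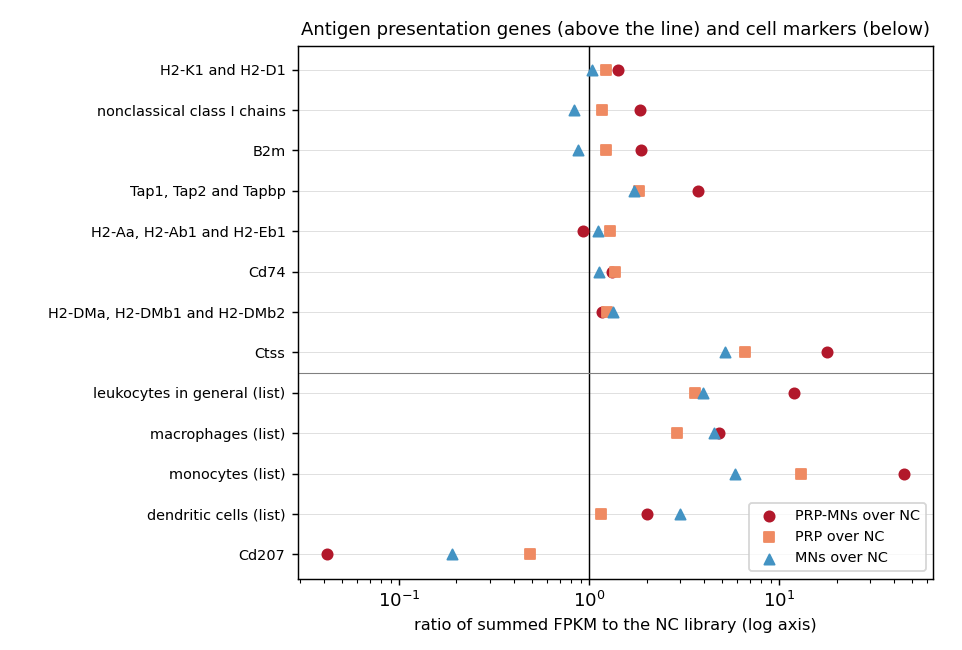
Summed FPKM in PRP-MNs, PRP and MNs relative to NC, on a log axis, for groups of members (above the line) and for marker lists and Cd207 (below it). Ctss lies at 17.7 times NC in PRP-MNs and the leukocyte list at 12.0 times, while H2-Aa, H2-Ab1 and H2-Eb1 together lie between 0.931 and 1.28 times in the 3 libraries and Cd207 at 0.0417 times in PRP-MNs.

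MHC class I genes resemble each other, and fragments can be split or lost between them. As a measure, 100-base windows were taken from the longest protein-coding transcript of each member, or its longest if none was protein-coding. The share that occurs unchanged in a transcript of another gene was counted in GENCODE release M21. It was 16.4% for H2-Q7 (mostly with H2-Q6), 14.2% for H2-T22 (9.81% with H2-T10) and 11.8% for H2-T10 (with H2-T22). H2-Q5 shared 12.9%, H2-Q6 10.8%, H2-T23 7.28%, H2-D1 4.64%, H2-Q4 2.66% and H2-Q10 2.06%. H2-Q1, which stayed below 5 FPKM, shared 13.1%, so its differences carry the same uncertainty. The pair H2-DMb1 and H2-DMb2 shared 13.7% and 12.9% of their windows, so the ratio between them is uncertain by what the authors' counting did with such fragments. H2-K1, H2-T24, H2-M2, H2-M3, H2-Aa, H2-Ab1, H2-Eb1, Cd74, B2m, Tap1, Tap2 and Ctss shared none in the transcript used. Other transcripts may differ: H2-Q5 shared windows with another transcript of H2-K1. H2-Ke6 shared 41.2%, with the overlapping gene Gm20427.
No source used here says whether strands were kept apart in the counts, and genes on the opposite strand overlap 29.4% of the exon bases of H2-T22, 27.1% of H2-T10, 26.8% of Rfx5, 24.9% of Tapbp, 19.1% of H2-Q4, 14.1% of Tap2, 11.5% of Erap1 and 10.4% of H2-DMa. MHC genes also vary between mouse strains and the reference is C57BL/6J, so fragments of another haplotype may have been missed, a share that was not tested.

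**Figure D5:**
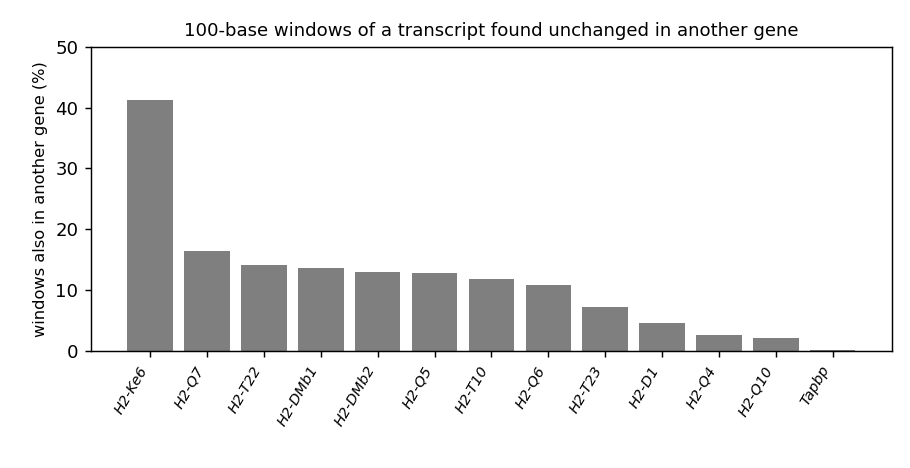
Share of 100-base windows of a member's transcript that occur unchanged in a transcript of another gene, in percent, for the members at 5 FPKM or more in at least 1 library with a share above 0. H2-Ke6 stands at 41.2%, and the MHC chains lie between 2.06% for H2-Q10 and 16.4% for H2-Q7.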

How the data were processed

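The authors deposited 1 table of FPKM values, with 1 column per library. Per the labels' protocols, the NEBNext Ultra kit was used on 1 μg of RNA. The submitters' processing notes name the build GRCm38 and give it no role. Aligner, counter and annotation are not given in the sources used here. No value was altered: the table was read as deposited, and all gene IDs of members matched GENCODE release M21. Depth was estimated from steps between low values of genes with 1 transcript, where 16.2% to 18.7% of values lay within 0.02 of a whole fragment, against 2.64% to 2.73% at other steps. Whole fragments were therefore not recovered, and no count test was run. Differences were log2 of the ratio of FPKM + 1 among genes at 1 FPKM or more in at least 1 of the 2 libraries, with a threshold of 2-fold. No p-value was computed, each group being 1 library. The 5 comparisons, the members and the lists were chosen with earlier results of these data known. Values in each library are given for every member at 5 FPKM or more, and from each further list at most 4 genes with the largest differences, or whole lists, are named. Members below 5 FPKM that are given with values were chosen after their values were seen, as was Ctsl. A total of 114 of 117 list genes matched, and the other 3 (Ifi30, Trdc and Trac) are not analysed here. Values of some list genes are not reported here. Calculations used Python 3.11.15 with pandas 2.3.3 and scipy 1.17.1 and were tested on simulated data.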

Additional observations from a re-analysis of the deposited data

How the results depend on the processing

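With 1 library per group, no replicate could be left out. No paired analysis was possible because the groups compared share only 1 replicate number. No member at 5 FPKM or more that differed by at least 2-fold changed direction under any of the 8 alternatives, but none could have. The pseudocount, filters and threshold cannot change a sign, and rescaling or centring moves differences by far less than 2-fold. Rescaling each library to the same FPKM sum moved the median of all genes in PRP-MNs against NC to 0.29, in place of 0.14, and in MNs against NC to 0.34, in place of 0.16. It took B2m and H2-Q4 past 2-fold in PRP-MNs against NC, and centring on the median of all genes took H2-Q5 below it. A 3-fold threshold left 6 members higher and 1 lower in PRP-MNs against NC, 2 and 0 in PRP against NC, 1 and 2 in MNs against NC, 2 and 0 in PRP-MNs against PRP, and 3 higher in PRP-MNs against MNs. In PRP against NC the number lower was 2 with a pseudocount of 0.1 FPKM and 0 with a filter at 5 FPKM. In MNs against NC it was 2 with each library rescaled. In PRP-MNs against PRP it was 1 with that filter, and 1 with a filter on the mean of the 4 libraries. The other 66 counts were within 1.5 times those reported. Small differences of H2-Eb1, H2-K1, H2-Aa, H2-Ab1, H2-D1, H2-DMb1, H2-Ke6, H2-Q7, Cd74, B2m, Nlrc5 and Tap1 changed sign in at least 1 comparison under rescaling or centring, all below 0.2 on the log2 scale. The estimated depth limits members below 1 FPKM, since at 1 FPKM a transcript of 1 kb had at most 19.3 fragments.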
